A study of Homo sapiens with 9 samples.

Results

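The 10 genes described here are transcription factors and a splicing factor that move carcinoma cells between an epithelial and a mesenchymal state, out of 42717 genes in the deposited count table. They were chosen by name for their textbook roles, with earlier results of these data known. The first 6 are inducers of epithelial-mesenchymal transition (EMT), namely ZEB1, ZEB2, SNAI1, SNAI2, TWIST1 and TWIST2. The other 4 are epithelial counterparts, namely GRHL2, OVOL1, OVOL2 and ESRP1. All 10 were present in the table.

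Their RNA was read in the cell lines S2-007, S2-020 and also S2-028, all derived from SUIT-2 (a line of human pancreatic ductal adenocarcinoma), with 3 libraries per line and 9 in all. The labels name no treatment and no introduced gene for these cells, which grew in DMEM with serum. In the study S2-007 carried the protein maspin in nucleus and cytoplasm and S2-028 in the cytoplasm, whereas S2-020 had little endogenous maspin and served as a host line for its overexpression in other experiments. Each line is a single cell line, so a difference between lines cannot be told apart from any other difference between those lines, maspin included. The labels do not say whether the 3 libraries of a line came from separate cultures, so the p-values measure only the spread between these libraries.

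During EMT, epithelial cells lose adherens and tight junctions and gain a motile, mesenchymal form. The ZEB, SNAI and TWIST proteins repress epithelial genes such as CDH1, the gene of E-cadherin, and ZEB and SNAI proteins do so by binding the E-box CACCTG. GRHL2 and the OVOL proteins activate epithelial programmes and repress ZEB1, and ESRP1 directs epithelial splicing of genes such as FGFR2 and CD44. The miR-200 family represses ZEB1 and ZEB2 through their 3′ UTRs, and ZEB proteins in turn repress the miR-200 genes, a well known double-negative loop.

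The sequences of that loop are shown first because they set ZEB1 and ZEB2 apart from the other members. The 5 mature miRNAs of the family (RefSeq, GRCh38.p14) fall into 2 groups by their seed, bases 2 to 8, which is in capitals.
hsa-miR-200b-3p: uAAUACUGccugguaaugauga
hsa-miR-200c-3p: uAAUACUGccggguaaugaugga
hsa-miR-429: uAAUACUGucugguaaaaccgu
hsa-miR-200a-3p: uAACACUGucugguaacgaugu
hsa-miR-141-3p: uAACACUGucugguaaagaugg
The first 3 share the seed AAUACUG, and the last 2 share AACACUG. The matching 7 letters in a target are CAGTATT for the first group and CAGTGTT for the second. ZEB1 held 6 and 3 of these matches in the 3′ UTR of its canonical transcript, 9 in 2540 bases, and ZEB2 held 5 and 4, 9 in 5370 bases. ESRP1 held 2, GRHL2 and SNAI2 held 1 each, and SNAI1, TWIST1, TWIST2, OVOL1 and OVOL2 held none. Over 19559 canonical 3′ UTRs with a median of 1064 bases, 28.2% held a match to either, 16% to the first and 18.2% to the second. The following stretches of 29 bases (GENCODE 44, GRCh38) show 3 matches in each ZEB gene, 2 of 1 seed group and 1 of the other, with the match in capitals.
ZEB1, chr10:31527618-31527646 (+ strand): attgttttatcttatCAGTATTatcactc
ZEB1, chr10:31528562-31528590 (+ strand): tgtcttcaaacctggCAGTATTaataccc
ZEB1, chr10:31528782-31528810 (+ strand): tgagatttgatttaaCAGTGTTatgttaa
ZEB2, chr2:144389230-144389258 (- strand): tgcaaaaattttgtaCAGTGTTaaggcct
ZEB2, chr2:144389046-144389074 (- strand): cgcactaccatacatCAGTATTtttatta
ZEB2, chr2:144388983-144389011 (- strand): cgcactacaatgcatCAGTATTatgattc
A match is a description of letters and not a measured site. The libraries were poly(A)-selected, so the mature miRNAs were not measured.

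**Figure D1:**
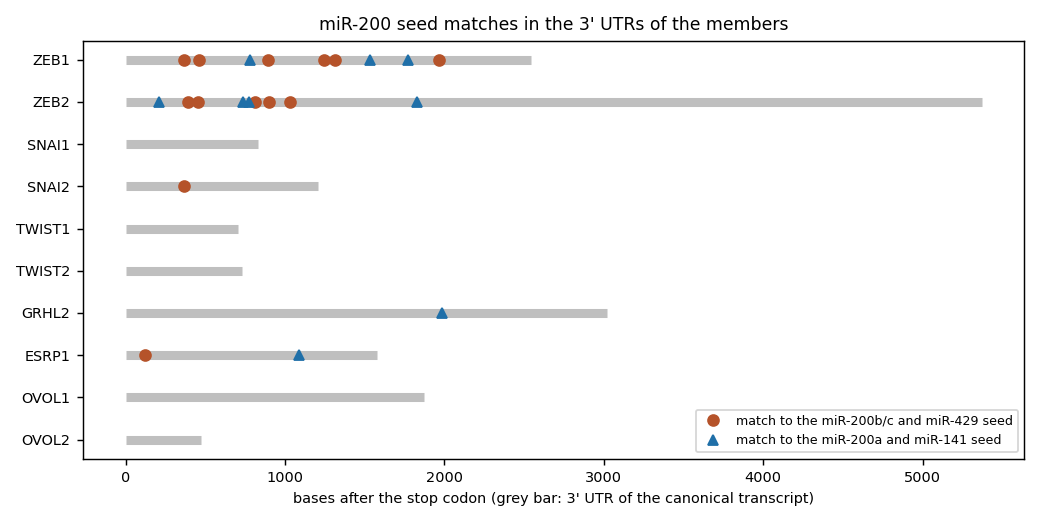
Positions of the miR-200 seed matches in the 3′ UTRs of the 10 members, in bases after the stop codon, with grey bars for the length of each 3′ UTR. ZEB1 and ZEB2 each hold 9 matches, and no other member holds more than 2.

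Total counts lay between 60328748 and 86253923 and differed by line. They were 60328748 to 61800271 in S2-028, 71040887 to 75136834 in S2-007 and 73775302 to 86253923 in S2-020. Levels are given as CPM, counts scaled to the total of their library with TMM factors over the 9 libraries, and a count of 3 reads per library was taken as the floor, which lay between 0.0361 and 0.0492 CPM. This floor covers counting error only. Of the counts between 1 and 20 in the table, 75.3% were even, against 49.7% of those over 1000, so a low count may stand for fewer molecules than reads, and the results were also computed with counts halved. The label of adenocarcinoma was checked with ductal markers, which were unevenly spread over the lines. KRT18, a keratin of simple epithelia, had 2015, 1682 and 4839 mean CPM in S2-007, then S2-020, then S2-028. The 10 ductal markers summed to 10500 to 10900 CPM in S2-007, 4320 to 5430 in S2-020 and 15700 to 18400 in S2-028, and none was at or under the floor in every library of a line. These sums are mostly keratin reads, and the list shares CDH1 and EPCAM with the epithelial targets below. KRT7 had 237.9, 46.55 and 873.8 mean CPM in the same order of lines, and KRT19 had 2123, 102.8 and 1933. CEACAM5, a ductal adhesion antigen, was at 16.69 CPM in S2-007 but 0.369 in S2-020 and 0.842 in S2-028, so that a marker of this list could be low in S2-028 too. All 10 means were lower in S2-020 than in S2-007. The 16 markers of acinar, endocrine, immune, endothelial and stromal cells summed to 347 to 421 CPM in S2-007 and to at most 26.5 in the other lines. LYZ (lysozyme) at 332.1 CPM and CD68 at 41.05 CPM made up nearly all of the S2-007 sum. COL1A1, COL3A1, DCN and LUM of this list are also among the mesenchymal markers below. CD3E, the T-cell marker, had 0 counts in every S2-007 library, 10, 8 and 22 in S2-020 and 22, 18 and 22 in S2-028. It was called higher in S2-028 than in S2-007, passing the filter on low counts only through S2-028. The pancreatic enzyme PRSS1 and the hormone INS had at most 0.116 mean CPM in any line. In each line 4 of the 16 had a mean over 1 CPM, among them PECAM1 with 6.18, 8.5 and 6.00 in S2-007, then S2-020, then S2-028. The part of these differences in the results below was not tested. In such bulk libraries, fewer cells of a state and less RNA per cell cannot be told apart.

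The 3 comparisons asked where each gene stood between the lines: S2-028 against S2-007, which is the study's own contrast, S2-020 against S2-007, and S2-028 against S2-020. They share lines, so their values stand side by side and are not independent. A gene was called different at a Benjamini-Hochberg adjusted p under 0.05 over all genes tested in the quasi-likelihood test of edgeR and a change of at least 1.5-fold either way. By this rule 18.4% of 26371 genes were called in S2-028 against S2-007 (10.2% higher and 8.19% lower), 21.6% of 26657 in S2-020 against S2-007 (9.57% higher and 12.1% lower) and 22.2% of 26031 in S2-028 against S2-020 (12.1% higher and 10.1% lower). Of the 9 members that passed the filter on low counts, 7, 7 and 6 were called. TWIST1 did not pass it in any comparison. OVOL2 in both comparisons with S2-020, and OVOL1 in S2-028 against S2-020, passed only through the line where they were high, so their counts among the calls are a description. Of the 10 ductal markers, 4 were called higher and 4 lower in S2-028 than in S2-007, the latter being CEACAM5, CEACAM6, MUC1 and S100P, and 9 were called lower in S2-020 than in S2-007. S100P passed the filter in both only through S2-007.

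The 4 epithelial factors had one order, lowest in S2-020, intermediate in S2-007 and highest in S2-028. All 4 were called in all 3 comparisons, subject to the limit on OVOL1 and OVOL2 given above. Their median log2 fold change was 1.93 in S2-028 against S2-007, -3.51 in S2-020 against S2-007 and 4.99 in S2-028 against S2-020. The medians of all genes tested were 0.00196, -0.0534 and 0.0245. In both comparisons with S2-020 the median of the 4 lay between OVOL1 and OVOL2, so it is a description under the same limit. The 6 inducers had no common order: by their means, ZEB1 and ZEB2 were lowest in S2-028, SNAI1 was lowest in S2-007, and SNAI2 and TWIST1 were highest there. Of the 5 inducers tested, 1 was higher and 2 were lower in S2-028 than in S2-007, 2 were higher and 1 was lower in S2-020 than in S2-007, and 2 were lower in S2-028 than in S2-020.

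**Figure D2:**
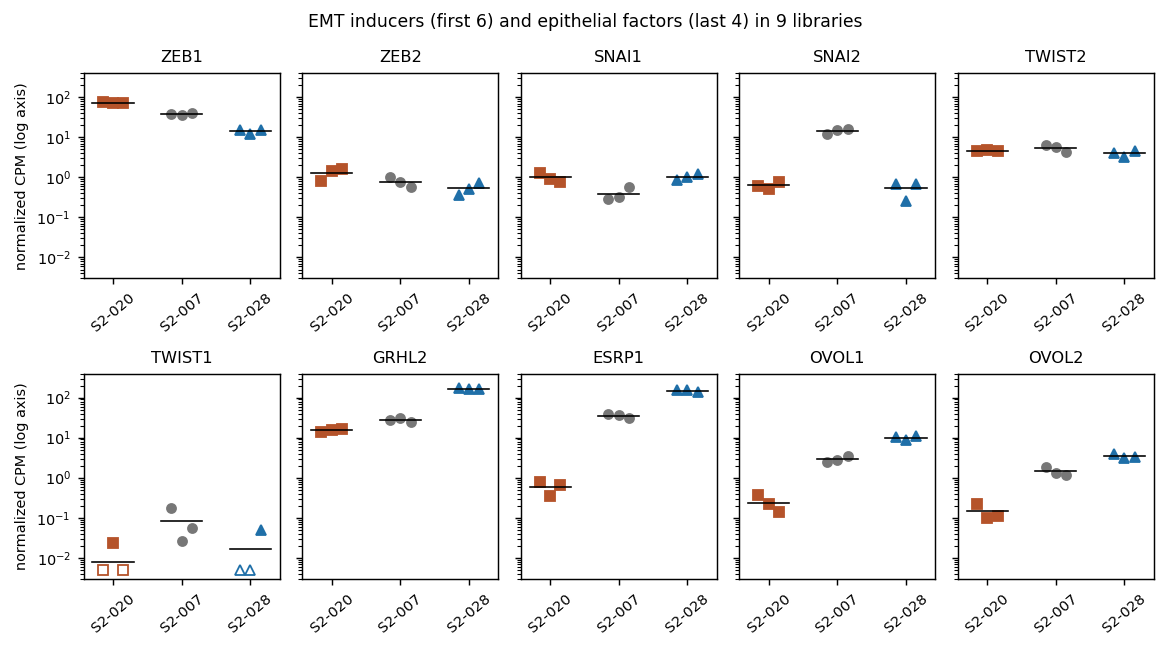
Normalized CPM of the 10 members in each of the 9 libraries, on a log axis, with a black bar at the mean of the 3 libraries of a line and open symbols at the lower edge for libraries with 0 counts. GRHL2, ESRP1, OVOL1 and OVOL2 climb from S2-020 through S2-007 to S2-028, ZEB1 falls in that order, and SNAI2 stands out in S2-007 alone.

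GRHL2 (NCBI gene 79977, chr8:101492439-101681200 of GRCh38.p14, 16 exons) encodes a Grainyhead transcription factor that activates junction genes. It had 28.3, 30.2 and 24.7 CPM in the S2-007 libraries, 14.2, 15.8 and 16.9 in those of S2-020 and 170, 162 and 163 in those of S2-028. The S2-028 libraries stood far above all others, and the S2-020 libraries were the lowest. GRHL2 was 5.95-fold higher in S2-028 than in S2-007, at 2.57 on the log2 scale (standard error, SE, 0.0773, adjusted p = 2.05e-16). The step from S2-007 down to S2-020 was smaller, at -0.86 on the log2 scale (SE 0.0944, adjusted p = 2.54e-07). From S2-020 to S2-028 it was 10.6-fold (log2 3.40, SE 0.0700, adjusted p = 6.8e-18).

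ESRP1 (NCBI gene 54845, chr8:94641174-94707466, 16 exons) had the widest range of the members, 7.98 on the log2 CPM scale between the means of S2-020 and S2-028. The S2-007 libraries held 39.0, 36.8 and 30.2 CPM, and the S2-028 libraries 156, 156 and 139 CPM. In S2-020 it fell to 0.779, 0.349 and 0.669 CPM, from 29 to 56 reads per library, which is above the floor. ESRP1 was 4.26-fold higher in S2-028 than in S2-007 (log2 fold change 2.09, SE 0.0872, adjusted p = 4.16e-14). Against S2-020 it was 255-fold higher in S2-028, at a log2 fold change of 8.00 (SE 0.136, adjusted p = 4.47e-19), and it was 61.2-fold lower in S2-020 than in S2-007 (adjusted p = 6.85e-16). A near-loss of ESRP1 RNA thus set S2-020 apart, while its GRHL2 was only 1.82-fold under that of S2-007.

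OVOL1 (NCBI gene 5017, chr11:65787063-65797214, 4 exons) and OVOL2 (NCBI gene 58495, chr20:18024152-18059188, 4 exons) encode zinc finger repressors of ZEB1. OVOL1 had 2.51, 2.77 and 3.53 CPM in S2-007, 0.362, 0.216 and 0.139 in S2-020 and 10.5, 8.66 and 10.9 in S2-028. OVOL2 had 1.88, 1.30 and 1.19 CPM in S2-007, 0.223, 0.0962 and 0.112 in S2-020 and 3.88, 3.19 and 3.34 in S2-028. Both followed the order of GRHL2 and ESRP1 at lower levels. In S2-028 against S2-007, OVOL1 was higher by 1.78 (SE 0.161, adjusted p = 1.18e-08) and OVOL2 by 1.25 on the log2 scale (SE 0.230, adjusted p = 0.000165). In S2-020 against S2-007 OVOL1 was lower by a log2 fold change of -3.64 (SE 0.316, adjusted p = 9.18e-09). OVOL2 was at -3.38 (SE 0.403) and passed the filter only through S2-007, so its value is a description. Between S2-028 and S2-020 the log2 fold change was 5.39 for OVOL1 (SE 0.245) and 4.60 for OVOL2 (SE 0.321), where OVOL2 rested on 8 to 16 reads per library in S2-020. Of the exon bases of OVOL1, 42.5% lay under a gene on the opposite strand, and whether reads were counted by strand is not given in the sources used here, so its reads may include some of that gene. This share was at most 1.95% for each other member.

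ZEB1 (NCBI gene 6935, chr10:31318417-31529804, 9 exons) ran in the opposite order. It had 77.4, 73.0 and 71.0 CPM in S2-020, 38.5, 35.8 and 39.7 in S2-007 and 15, 12.4 and 15.4 in S2-028. The 3 lines did not overlap, and the spread within each was small beside the steps between them. ZEB1 was lower in S2-028 than in S2-007 at a log2 difference of -1.41 (SE 0.0945, adjusted p = 9.55e-11) and higher in S2-020 than in S2-007 by 0.93 (SE 0.0618, adjusted p = 1.71e-10). Between the outer lines it was -2.37 on the log2 scale (SE 0.0836, adjusted p = 1.76e-14).

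ZEB2 (NCBI gene 9839, chr2:144384081-144520119, 10 exons), the paralog with the same number of seed matches, was far less abundant. It had 1.00, 0.766 and 0.584 CPM in S2-007, 0.835, 1.42 and 1.59 in S2-020 and 0.370, 0.517 and 0.721 in S2-028. The libraries of S2-007 overlapped those of both other lines. S2-028 lay below S2-020 at a log2 difference of -1.25 (SE 0.356, adjusted p = 0.00756), with the libraries apart, but that call was lost when the test asked for more than a 1.5-fold change (adjusted p = 0.0772). S2-020 against S2-007 gave 0.67 (95% interval 0.0052 to 1.34, adjusted p = 0.107), and S2-028 against S2-007 gave -0.55 (95% interval -1.38 to 0.28, adjusted p = 0.344). Without the library S2-020 replicate 1 the former was 0.90 and was called (adjusted p = 0.0352).

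SNAI2 (NCBI gene 6591, chr8:48917598-48921429, 3 exons), the gene of the repressor Slug, was high in S2-007 alone. Its libraries had 11.9, 15.6 and 16.1 CPM there, 0.612, 0.505 and 0.781 in S2-020 and 0.677, 0.251 and 0.689 in S2-028. The last 2 lines overlapped and both lay far under S2-007. SNAI2 was 26.9-fold lower in S2-028 (log2 fold change -4.75, SE 0.237, adjusted p = 8.05e-13) and 23.5-fold lower in S2-020 (log2 fold change -4.56, SE 0.180, adjusted p = 4.76e-14) than in S2-007. S2-028 and S2-020 differed by -0.23 (95% interval -1.15 to 0.69, adjusted p = 0.741).

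SNAI1 (NCBI gene 6615, chr20:49982980-49988886, 3 exons), the gene of the repressor Snail, ran against its paralog. It had 0.294, 0.322 and 0.570 CPM in S2-007, 1.31, 0.938 and 0.781 in S2-020 and 0.838, 1.03 and 1.25 in S2-028. S2-007 was the lowest line without overlap, and the other two overlapped. SNAI1 differed by 1.40 on the log2 scale in S2-028 against S2-007 (SE 0.389, adjusted p = 0.00725) and 1.32 in S2-020 against S2-007 (SE 0.377, adjusted p = 0.00767). Both calls were lost in the test against a 1.5-fold change (adjusted p = 0.0636 and 0.0701), and the latter also without S2-020 replicate 1 (log2 fold change 1.09, adjusted p = 0.0592). Between S2-028 and S2-020 the difference was 0.04 (95% interval -0.61 to 0.70, adjusted p = 0.936). These values rest on 22 to 94 reads per library.

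TWIST2 (NCBI gene 117581, chr2:238848085-238910534, 2 exons) varied least. It had 6.37, 5.72 and 4.22 CPM in S2-007, 4.63, 4.75 and 4.59 in S2-020 and 4.12, 3.24 and 4.64 in S2-028. All lines overlapped, and their means spanned 0.435 on the log2 CPM scale. The difference of S2-028 from S2-007 was -0.44 (95% interval -0.84 to -0.05, adjusted p = 0.0833), and among the alternatives run it was called only without S2-007 replicate 3 (-0.60, adjusted p = 0.0188). The other two differences were -0.26 (95% interval -0.60 to 0.09, adjusted p = 0.247) in S2-020 against S2-007 and -0.22 (95% interval -0.57 to 0.14, adjusted p = 0.358) in S2-028 against S2-020. TWIST1 (NCBI gene 7291, chr7:19113047-19117636, 2 exons), whose basic helix-loop-helix protein is closely related to that of TWIST2, had 13, 2 and 4 reads in S2-007, 0, 2 and 0 in S2-020 and 0, 0 and 3 in S2-028. The last 2 lines were at or under the floor in every library, and no fold is given for it.

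**Figure D3:**
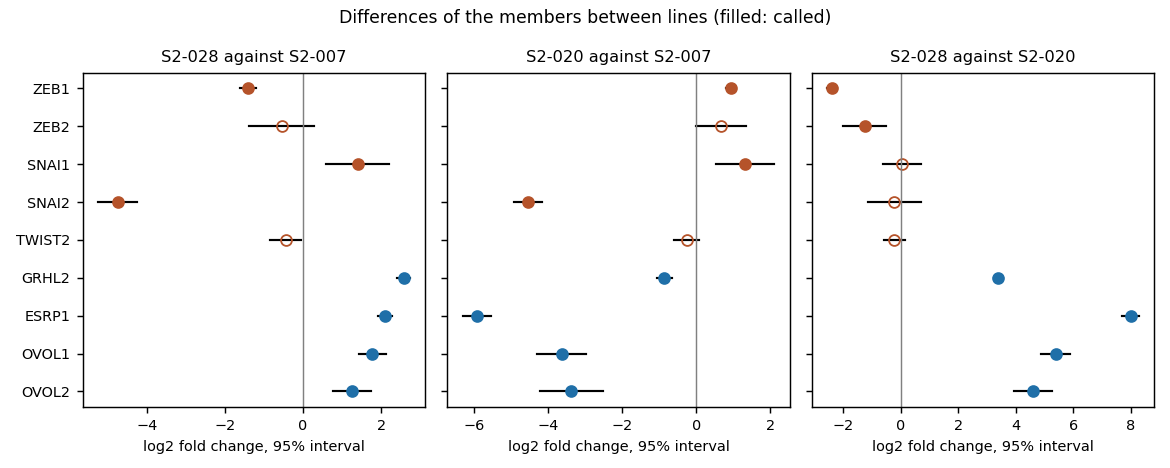
Log2 fold changes of the 9 tested members with 95% intervals in the 3 comparisons, with EMT inducers in brown, epithelial factors in blue and filled points for called genes. The 4 epithelial factors lie above 0 in S2-028 against either line and under 0 in S2-020 against S2-007, while the inducers lie on both sides.

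Set beside each other per length, the levels changed rank between lines. In CPM per kilobase of the canonical transcript, ESRP1 stood at 39.9 ± 2.68 (SD, n = 3) and GRHL2 at 31.5 ± 0.877 in S2-028, and ZEB1 at 2.40 ± 0.273. In S2-020 ZEB1 stood at 12.4 ± 0.552, GRHL2 at 2.99 ± 0.260 and ESRP1 at 0.159 ± 0.0594. S2-007 held ESRP1 at 9.37 ± 1.22, SNAI2 at 6.66 ± 1.04, ZEB1 at 6.40 ± 0.340 and GRHL2 at 5.30 ± 0.540, a narrower range than in the other lines. The spreads of SNAI2 and ZEB1 overlapped there. TWIST2 had 4.05 ± 0.821 per kilobase in S2-007 and was thus the third inducer of that line, whereas ZEB2, SNAI1 and TWIST1 were each under 1 in all 3 lines.

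The balance of a repressor and its antagonist can be read within a library, where depth cancels. The ratio of GRHL2 to ZEB1 reads was 0.735, 0.845 and 0.621 in S2-007, 0.183, 0.217 and 0.237 in S2-020 and 11.4, 13.0 and 10.6 in S2-028. ESRP1 to ZEB1 gave means of 0.933 ± 0.151 (SD, n = 3), 0.00809 ± 0.00289 and 10.7 ± 1.80 in S2-007, then S2-020, then S2-028, and OVOL1 to ZEB1 gave 0.0771 ± 0.0118, 0.0032 ± 0.00137 and 0.704 ± 0.00649. No ratio overlapped between lines, but this was fixed by the levels above. GRHL2, ESRP1 and OVOL1 rose and ZEB1 fell from S2-020 through S2-007 to S2-028, so these ratios restate those levels. CDH1 to VIM, the E-cadherin to vimentin ratio often used to place cells between the epithelial and mesenchymal states, ran in the same order, with means of 0.0372, 0.00142 and 0.270. That ratio likewise restates the levels of CDH1 and VIM, given below. All are ratios of reads, not of molecules, since transcript lengths differ.

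**Figure D4:**
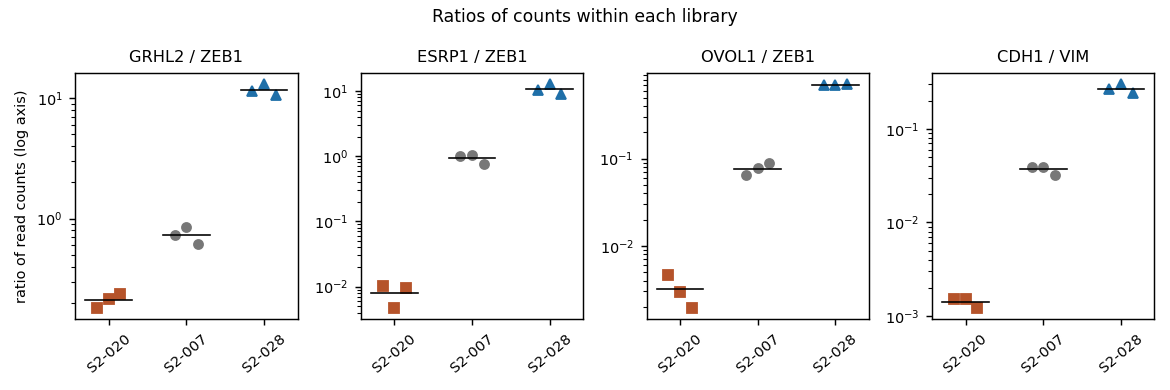
Ratios of read counts within each of the 9 libraries on log axes, with a black bar at the mean of a line. In all 4 ratios the libraries of S2-020 are lowest, those of S2-007 intermediate and those of S2-028 highest, with GRHL2 to ZEB1 rising from a mean of 0.212 to 11.7. This order follows from the levels of the single genes.

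The paralogs moved with the epithelial members only in part. GRHL1 followed GRHL2, with 4.40 ± 0.168, 1.85 ± 0.111 and 10.7 ± 0.762 CPM (SD, n = 3) in S2-007, then S2-020, then S2-028, and was called in each comparison. GRHL3, at 3.10, 0.582 and 1.07 mean CPM, was highest in S2-007 and lower in S2-028 at a log2 difference of -1.53 (adjusted p = 0.000956). ESRP2, which shares the splicing role of ESRP1, had 31.1 ± 2.74, 22.3 ± 3.14 and 52.6 ± 7.10 CPM. Its range was narrow beside that of ESRP1, so that the ratio of ESRP1 to ESRP2 reads was 1.15 ± 0.233 in S2-007, rose to 2.90 ± 0.481 in S2-028 and was 0.0268 ± 0.00992 for S2-020. S2-020 thus had ESRP2 RNA with nearly no ESRP1 RNA. Of 4 paralogs tested (SNAI3, GRHL1, GRHL3 and ESRP2), 2 were higher and 1 was lower in S2-028 than in S2-007. The shares of all genes tested were 10.2% higher and 8.19% lower there.

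Epithelial genes that are textbook targets of these factors, junction and polarity genes for the most part, followed the epithelial members. In S2-028 against S2-007, 15 of 23 were higher and 1 was lower, with a median log2 fold change of 1.05. In S2-020 against S2-007, all 19 calls were lower, with a median of -2.19, and in S2-028 against S2-020 all 20 calls were higher, with a median of 3.07. Over all genes tested, 10.2% were called higher, 12.1% lower and 12.1% higher in these comparisons, with medians of 0.00196, -0.0534 and 0.0245. The list was chosen with earlier results of these data known. CDH1 had 54.2 ± 2.43 CPM (SD, n = 3) in S2-007, 4.55 ± 0.271 in S2-020 and 112.5 ± 7.16 in S2-028. MAL2, an apical sorting protein, had 76.2 ± 5.96, 0.218 ± 0.146 and 297.9 ± 13.3 CPM. PRSS8, a membrane serine protease, had 6.11, 0.130 and 33.4 mean CPM, and LSR, a protein of tricellular junctions, 74.4, 48.8 and 201. RAB25, an epithelial recycling GTPase, had 2, 0 and 2 reads in S2-020, at the floor, and was at least 397-fold higher in S2-007 and at least 1528-fold higher in S2-028. MAL2, PRSS8 and RAB25 passed the filter in comparisons with S2-020 only through the other line. Of the 23 targets, 19 had their means in the order of the epithelial members, and EPCAM, TJP3, OCLN and DSP did not. TJP3, a tight junction scaffold, was the 1 target called lower in S2-028 than in S2-007 (log2 fold change -1.14, adjusted p = 6.56e-08), with 38.9 ± 5.02 CPM in S2-007, 2.10 ± 0.759 in S2-020 and 17.7 ± 2.95 in S2-028. OCLN (occludin) and DSP (desmoplakin) were lowest in S2-007 by their means. EPCAM, an epithelial adhesion protein, was highest in S2-007, with 527.2 ± 13.9 CPM in S2-007 against 421.3 ± 14.3 in S2-028 and 121.6 ± 2.37 in S2-020. Its log2 fold change in S2-028 against S2-007 was -0.32 (adjusted p = 8.51e-05), under the size needed for a call.

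The promoters of these targets are shown where they hold the E-box of ZEB and SNAI proteins. In the RefSeq promoters (GRCh38.p14, 250 bases before to 50 after a start), CACCTG or its reverse complement CAGGTG occurred in 24.1% of 27305 genes. It occurred in 11 of the 14 epithelial targets with a promoter in the table (78.6%) and in 1 of 11 mesenchymal markers (9.09%). A gene counted if any of its promoters held the motif. The targets were listed as textbook targets of these factors, so their share is a description. The list of targets has 23 genes, and CDH1 is among those without a promoter there. Other lists lay on both sides of the share of all genes. The E-box occurred in 3 of 5 ductal markers (60%), 3 of 7 markers of other cells (42.9%) and 4 of 10 further epithelial regulators (40%). It occurred in 2 of 19 corepressors and stability factors (10.5%) and 0 of 9 further inducers. Promoters of the members SNAI1, SNAI2, TWIST1, GRHL2, OVOL1, OVOL2 and ESRP1 are not analysed here. CRB3, a polarity protein, and CLDN7, a claudin of tight junctions, were chosen for their number of E-boxes, 5 in 1 promoter of each, of which the stretch shown for CLDN7 holds 4. RAB25, CDS1, a CDP-diacylglycerol synthase gene, the host transcript of miR-200c and miR-141 (MIR200CHG) and ZEB1 itself each have 1 in the stretch shown. The stretches lie before the start of transcription, with the motif in capitals.
CRB3, chr19:6464021-6464243 (+ strand): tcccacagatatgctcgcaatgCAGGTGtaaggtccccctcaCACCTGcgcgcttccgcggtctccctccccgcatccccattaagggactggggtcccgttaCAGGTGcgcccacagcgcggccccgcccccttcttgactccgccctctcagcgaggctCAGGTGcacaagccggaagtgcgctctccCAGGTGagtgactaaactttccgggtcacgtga
CLDN7, chr17:7262479-7262679 (- strand): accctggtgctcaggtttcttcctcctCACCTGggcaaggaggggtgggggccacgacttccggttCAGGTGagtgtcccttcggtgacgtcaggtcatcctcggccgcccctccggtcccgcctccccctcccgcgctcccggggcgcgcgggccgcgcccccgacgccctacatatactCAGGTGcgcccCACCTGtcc
RAB25, chr1:156061092-156061151 (+ strand): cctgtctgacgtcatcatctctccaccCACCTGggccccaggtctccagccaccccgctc
CDS1, chr4:84583073-84583126 (+ strand): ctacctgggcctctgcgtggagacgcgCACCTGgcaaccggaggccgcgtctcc
MIR200CHG, chr12:6963140-6963199 (+ strand): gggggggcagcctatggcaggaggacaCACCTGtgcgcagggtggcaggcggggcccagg
ZEB1, chr10:31318333-31318392 (+ strand): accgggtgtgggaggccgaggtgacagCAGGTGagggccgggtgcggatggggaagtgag
The letters do not show that a factor binds there. CRB3 had 6.40, 0.377 and 18.5 mean CPM in S2-007, then S2-020, then S2-028, and CLDN7 had 29.7, 1.08 and 71.4, the order of the epithelial members. OCLN, DSP and TJP3 also had an E-box in a promoter but did not take that order. CLDN4, MARVELD2 and LSR took it without an E-box in their promoter.

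Mesenchymal markers moved less uniformly. Of 17 tested in S2-028 against S2-007, 5 were higher and 4 were lower, with a median log2 fold change of -0.307. Of 17 tested in S2-020 against S2-007, 7 were higher and 2 were lower. Of 15 tested in S2-028 against S2-020, 1 was higher and 6 were lower, among them PDGFRB, which passed the filter only through S2-020. Of all genes tested, 10.2%, 9.57% and 12.1% were called higher and 8.19%, 12.1% and 10.1% lower in these comparisons. VIM, the intermediate filament of mesenchymal cells, ran with ZEB1 at 1467 ± 119 CPM (SD, n = 3) in S2-007, 3219 ± 207.1 in S2-020 and 419.9 ± 50.1 in S2-028. CDH2, N-cadherin, had 9.55 ± 1.92, 27.2 ± 3.01 and 1.21 ± 0.157 CPM, and was lower in S2-028 than in S2-007 at a log2 difference of -2.97 (adjusted p = 4.19e-11). The matrix genes FBN1 and COL5A1 did not follow ZEB1. FBN1, the gene of fibrillin, had 147.8, 472.6 and 341.4 mean CPM in S2-007, then S2-020, then S2-028, and COL5A1, a collagen chain, had 0.547, 6.64 and 4.64, so both were lowest in S2-007 and higher in S2-028 by 1.21 and 3.08 on the log2 scale.

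**Figure D5:**
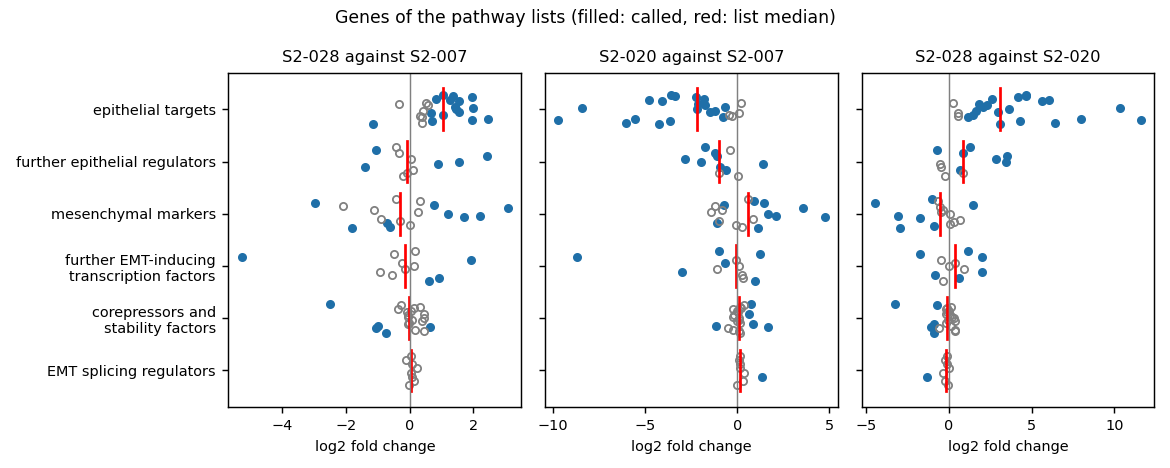
Log2 fold changes of the genes of 6 lists in the 3 comparisons, 1 point per gene, filled where called, with a red line at the median of each list. The epithelial targets lie mostly to the right of 0 in S2-028 against either line (medians 1.05 and 3.07) and to the left in S2-020 against S2-007 (median -2.19), while the EMT splicing regulators lie near 0 apart from QKI. The points farthest out are genes with almost no reads in 1 line, whose fitted values are not bounds.

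Other transcription factors known to induce EMT did not follow 1 direction. Of 11 tested in S2-028 against S2-007, 3 were higher and 1 was lower, with a median of -0.153. The lower one, FOXC2, passed the filter only through S2-007. FOXQ1 rose from 11.4 ± 1.15 CPM (SD, n = 3) in S2-007 to 43.3 ± 7.28 in S2-028, SOX4 from 33.2 to 63.3 and ZNF281 from 30.1 to 45.9. FOXC2 had 4.19 mean CPM in S2-007 and 0.108 in S2-028, and against S2-020, at the floor, it was at least 105-fold higher in S2-007. Its high level in S2-007 alone resembled that of SNAI2. In S2-020 against S2-007, 2 were higher and 4 were lower, and in S2-028 against S2-020, 4 were higher and 2 were lower. FOXC2 and PRRX2 among those 4 lower, and PRRX2 among those 4 higher, passed only through the line where they were high. The shares of all genes called were 18.4%, 21.6% and 22.2% in the 3 comparisons, in the order given.

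Among 11 further regulators of the epithelial state, 3 were higher and 2 were lower in S2-028 than in S2-007. In S2-020 against S2-007, 1 was higher and 7 were lower, and in S2-028 against S2-020, 6 were higher and 1 was lower. The shares called over all genes tested were 18.4%, 21.6% and 22.2%. FOXA2, an endodermal pioneer factor, took the order of GRHL2, with 2.54, 1.2 and 13.5 mean CPM in S2-007, then S2-020, then S2-028. KLF5 and ELF3, epithelial factors of the KLF and ETS families, were highest in S2-007 instead. KLF5 had 569.3, 299.9 and 217.3 mean CPM, and ELF3 had 219.6, 171.2 and 104.9, so that both were lower in S2-028 than in S2-007, by log2 fold changes of -1.39 and -1.06.

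Corepressors of these factors, with proteins that stabilize or degrade them, were called at or near the share of all genes, 5 of 21 in each comparison. Of 21 corepressors and stability factors, 1 was higher and 4 were lower in S2-028 than in S2-007, 4 were higher and 1 was lower in S2-020 than in S2-007, and all 5 calls were lower in S2-028 than in S2-020. AJUBA, a LIM protein that binds SNAI proteins as a corepressor, went with ZEB1, at 45.8 ± 7.43, 78.5 ± 9.37 and 8.12 ± 0.753 CPM (SD, n = 3) in S2-007, then S2-020, then S2-028. RCOR1, the CoREST scaffold, had 129, 91.6 and 61.4 mean CPM, and PAK1, a kinase that phosphorylates Snail, 120.8, 56.3 and 60.1. PRKD1, a kinase that marks Snail for degradation, was the 1 that was higher in S2-028, at 13.6 against 8.76 mean CPM. Among the partners and inhibitors of basic helix-loop-helix proteins such as TWIST, ID2 was higher in S2-028 than in S2-007 by a log2 fold change of 2.39 (adjusted p = 1.65e-12), while ID1 and TCF4 were lower by -1.14 and -1.72. With 7, 8 and 7 genes tested, 3 of that list were called in each comparison, against 18.4%, 21.6% and 22.2% of all genes. In S2-028 against S2-020 that count was 1 in the test against a 1.5-fold change.

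The other splicing regulators of EMT lacked the wide differences of ESRP1. Of 8 tested, 0 were called in S2-028 against S2-007 in edgeR's quasi-likelihood test and in each alternative run, DESeq2 among them. Of all genes tested, 18.4% were called there in the quasi-likelihood test. The 8 log2 fold changes lay between -0.122 and 0.227, and 3 genes had an unadjusted p under 0.05. Of these, MBNL1 also had an adjusted p under 0.05 (0.00598), at 0.227, under the size needed for a call. QKI, which promotes mesenchymal splicing and was picked after its values were seen, was the 1 call in each of the other comparisons. It had 55.0, 59.4 and 66.3 CPM in S2-007, 163, 161 and 144 in S2-020 and 61.8, 60.8 and 67.2 in S2-028. S2-020 was thus the line with the least ESRP1 and the most QKI.

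At the miRNA loci, the precursor genes held few reads, and their host transcripts are given instead. MIR200CHG had 9, 9 and 10 reads in S2-007, 4, 0 and 0 in S2-020 and 18, 43 and 36 in S2-028, with a log2 fold change of 2.03 (adjusted p = 0.0126) in S2-028 against S2-007. MIR205HG, the host of miR-205, which also targets ZEB1 and ZEB2, had 8, 6 and 7 reads in S2-007, 5, 9 and 3 in S2-020 and 177, 240 and 144 in S2-028, which is 4.96 higher on the log2 scale (adjusted p = 1.73e-10). The libraries of S2-028 stood above all others for both. Both passed the filter only through S2-028, so their values are a description. The calls of this small list changed with the processing, from 2 in S2-028 against S2-007 to 0 when at least 10 counts were required in every library. ZEB1-AS1, which overlaps the ZEB1 start on the other strand, had 5.07, 5.57 and 4.46 mean CPM in S2-007, then S2-020, then S2-028 and was not called in any comparison.

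The neighbours of the members on their chromosomes were looked at for shifts of whole regions. Over the 50 tested genes nearest to each member, the median log2 fold change lay between -0.243 and 0.151 in S2-028 against S2-007. Around GRHL2 it was -0.0473 with 6 genes higher, and around ESRP1 -0.0238 with 1 higher. In S2-020 against S2-007 the neighbours of OVOL1 had a median of -0.547 with 19 of 50 lower, against 12.1% of all genes tested, and OVOL1 itself was at -3.64. Those of TWIST1 had a median of -0.277 with 16 of 50 lower, and those of TWIST2 -0.343 with 12 of 50 lower. In S2-028 against S2-020, medians were 0.403 around TWIST1 with 14 of 50 higher and 0.253 around OVOL1 with 11 higher. Around GRHL2 it was -0.164 with 10 lower and 0 higher, where GRHL2 itself was at 3.40. Of all genes tested, 12.1% were called higher and 10.1% lower there. The part of these stretches in the results of the members was not tested. The neighbours of SNAI2 had a median of -0.0162 with 1 lower in S2-028 against S2-007, where SNAI2 was at -4.75.

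The genes most like each member across the 9 libraries were found by the root mean square (RMS) difference of log2 CPM, each gene centred on its own mean, over 28018 genes. ZEB1 was most like CSRP1 (RMS difference 0.0851) and TEX30 (0.112). For GRHL2 the nearest were FOXA2 (0.169) and JSRP1 (0.177), for OVOL1 RAP1GAP (0.279) and TGM2 (0.349), and for OVOL2 CDS1 (0.252) and ICAM1 (0.296). ESRP1 was nearest to MYO1D (0.444) and PRSS8 (0.518), and SNAI2 to UNC5B (0.314) and SLC43A3 (0.414). ZEB2 had ZNF32-AS2 (0.190) and LOC105373096 (0.217), and SNAI1 had EEF1AKMT4-ECE2 (0.203) and TMEM86B (0.221). Among the members themselves, OVOL1 and OVOL2 were nearest to each other (0.490), OVOL2 being the 21st nearest gene to OVOL1. The 9 libraries fall into 3 lines, so likeness here rests on 3 line means and is no sign of shared control.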

How the data were processed

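RNA of the 3 lines was sequenced from strand-specific poly(A) libraries, 3 per line. The authors trimmed reads with Trimmomatic 0.39, aligned them with BWA 0.7.17 to GRCh38.p14 and deposited whole-number counts of reads per gene, without normalization (42717 genes, and 2 lines that name no gene and were left out). SAMtools 1.12 and edgeR 3.16.5 are also named in the submitters' processing notes. The counting tool and its use of strand are not given in the sources used here. Normalized signal made by the authors, in 18 deposited columns, was not used. Since BWA aligns without splicing, reads that span exon junctions may be missing.

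Each comparison was fitted in edgeR 4.0.16 (R 4.3.3) with its 6 libraries: filterByExpr (minimum count 10, minimum total 15), TMM and the quasi-likelihood F-test, with Benjamini-Hochberg adjustment over all genes tested. Standard errors came from the fold change and F. The authors' text names a likelihood ratio test, which was an alternative beside DESeq2 1.42.0, other filters and scalings, and each library left out. Log2 CPM used a prior count of 2. Coordinates and promoters came from RefSeq, transcript lengths and 3′ UTRs from GENCODE 44, and sequences were read with Python 3.11.15.

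The members and gene lists were chosen with earlier results of these data known. Named beside the members were at most 4 called genes per list with the smallest adjusted p in S2-028 against S2-007, CDH1, EPCAM, VIM and CDH2, and the 2 genes most like each member whose line means spanned at least 1 on the log2 CPM scale. Others named were picked after their values were seen. A result that the rule would name is not reported here. On simulated counts for 26399 genes in S2-028 against S2-007, the procedure called 65 of 98 genes changed by 1 on the log2 scale and 95 of 97 changed by 2, with 12 false calls. No pair of libraries was near-identical.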

Additional observations from a re-analysis of the deposited data

How the results depend on the processing

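Each result was recomputed under 9 other settings and without each library. The number of members called, 7, 7 and 6 in S2-028 against S2-007, S2-020 against S2-007 and S2-028 against S2-020, lay between 6 and 8, 6 and 7, and 5 and 6. Of 403 recomputed log2 fold changes of members, 393 kept direction and side of the threshold. With a library left out, SNAI1 in S2-028 against S2-020 ranged from -0.11 to 0.27 and SNAI2 from -0.43 to 0.13, both changing sign without ever being called, and the cause was not tested. Testing against a 1.5-fold change lowered the genes called over the whole table to 2977, 3639 and 3638, from 4858, 5769 and 5788. OVOL2 gave no value in comparisons with S2-020 when at least 10 counts were required in every library. Halved counts, chosen after seeing the data, left every member's call in place. The replicate numbers did not pair the libraries, since the correlations of same-numbered deviations lay between -0.0219 and 0.014. With the replicate number as a block, 7, 7 and 6 members and 4865, 5650 and 5716 genes were called. Calls among the mesenchymal markers lay between 6 and 11 in S2-028 against S2-007 (9 as reported), and those among the basic helix-loop-helix partners between 1 and 4 in S2-028 against S2-020 (3 as reported). The corepressors fell from 5 to 3 calls in both comparisons with S2-007 in the test against a 1.5-fold change, and the miRNA loci, antisense partners and markers of other cells also moved by over 1.5 times in some settings. The depth limits TWIST1 and the miRNA precursors, which could not be told from absent in some lines.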
